A study of Mus musculus with 6 samples.

Results

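The genes described here are 6 genes that mark inner hair cells or hair cells in general, Otof, Slc17a8, Pou4f3, Gfi1, Myo7a and Myo6, out of 33676 mouse genes with at least 1 transcript in a count table of the cochlear modiolus. They were taken by name, from their known roles and with earlier results of these data known. All 6 had at least 1 transcript in the table. The modiolus is the bony core of the cochlea, where the spiral ganglion neurons (SGNs) lie next to the organ of Corti that holds the hair cells. The study destroyed hair cells with drugs and followed the SGNs, which degenerate afterwards. By the paper's discussion nearly all outer hair cells were lost early, whereas inner hair cells seemed more robust and some were left at 30 days. A figure legend of the paper instead describes all hair cells as lost by then. RNA-seq was carried out on 3 control and 3 degenerated libraries of C57BL/6 mice. The mice were male and 8 weeks old when treated. Degenerated mice received 1 g/kg kanamycin sulfate under the skin and 0.4 g/kg furosemide into the abdomen 30 min later, control mice received saline, and tissue for RNA was taken on day 30. The labels give the groups only as control and degenerated, and the treatment is known from the methods. The labels do not say whether a library came from 1 animal or from a pool, so the p-values measure the spread between these libraries only, which may be technical. The drugs act on the whole animal, and the degenerated group therefore differs from the control group by drug exposure as well as by what became of the hair cells and SGNs.

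Sound moves the hair bundle, a staircase of stereocilia on top of each hair cell, and the calcium that then enters the cell releases glutamate onto the SGN fibres. Inner hair cells carry most of this signal to the brain through their ribbon synapses, and outer hair cells amplify the vibration. Of the 6 genes, Otof encodes otoferlin, the calcium sensor of vesicle release at the inner hair cell synapse, and Slc17a8 encodes VGLUT3, which loads these vesicles with glutamate. Pou4f3 and Gfi1 encode transcription factors that hair cells need in order to mature and survive. Myo7a and Myo6 encode actin motors, myosin VIIa of the stereocilia and myosin VI, which anchors the stereocilia at their base and moves toward the minus end of actin.

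The libraries held 12480876 to 15549319 counts, and replicates of a group had Pearson correlations of 0.883 to 0.926 across genes on the log2 scale, against 0.890 to 0.919 between groups. The labels call the cell type spiral ganglion neuron, but the tissue was mixed. Summed levels of SGN markers were 11559 to 14781 CPM (counts scaled to a common library size) in control and 7041 to 10201 CPM in degenerated libraries, and those of Schwann cell markers 5847 to 9852 CPM and 4982 to 8064 CPM. Summed erythroid markers were at 6392, 40666 and 21118 CPM in control replicates 1, 2 and 3. In degenerated replicates 1, 2 and 3 they were at 7131, 3463 and 16287 CPM. The table lists 46.0% of the transcripts annotated for mouse genes, so that the value of a gene is the sum of its listed transcripts. For the 6 genes, 20 of 38 annotated transcripts were listed, and the other 18 were not analysed here.

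None of the 5 genes with enough counts for a test was called higher or lower in degenerated libraries, where a call needed an unadjusted p below 0.01 and a log2 fold change past 0.2 in either direction. By the same rule 2.73% of the 14118 genes tested were called (2.01% higher and 0.715% lower), so a count of 0 among 5 genes says little about these genes as a group. At an adjusted p under 0.05, 0 of the 14118 genes were called by edgeR's quasi-likelihood test, while 1367 had an unadjusted p under 0.05. Control and degenerated libraries overlapped for each of the 5 genes (over all genes tested the groups did not overlap for 17.7%). The log2 fold change was below 0 for 4 of them and above 0 for Myo7a, with a median of -0.34 against -0.0034 over all genes tested. Otof and Pou4f3 were close to control levels in degenerated replicate 1 and lower in the other 2 degenerated libraries. Gfi1 was near 0 in 1 library of each group, Myo7a was lowest in a control library, and the lowest and the highest Myo6 values were both in degenerated libraries. The transcript with the most counts was the same in all 6 libraries for Otof, Pou4f3 and Gfi1 and not for Myo7a and Myo6.

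**Figure D1:**
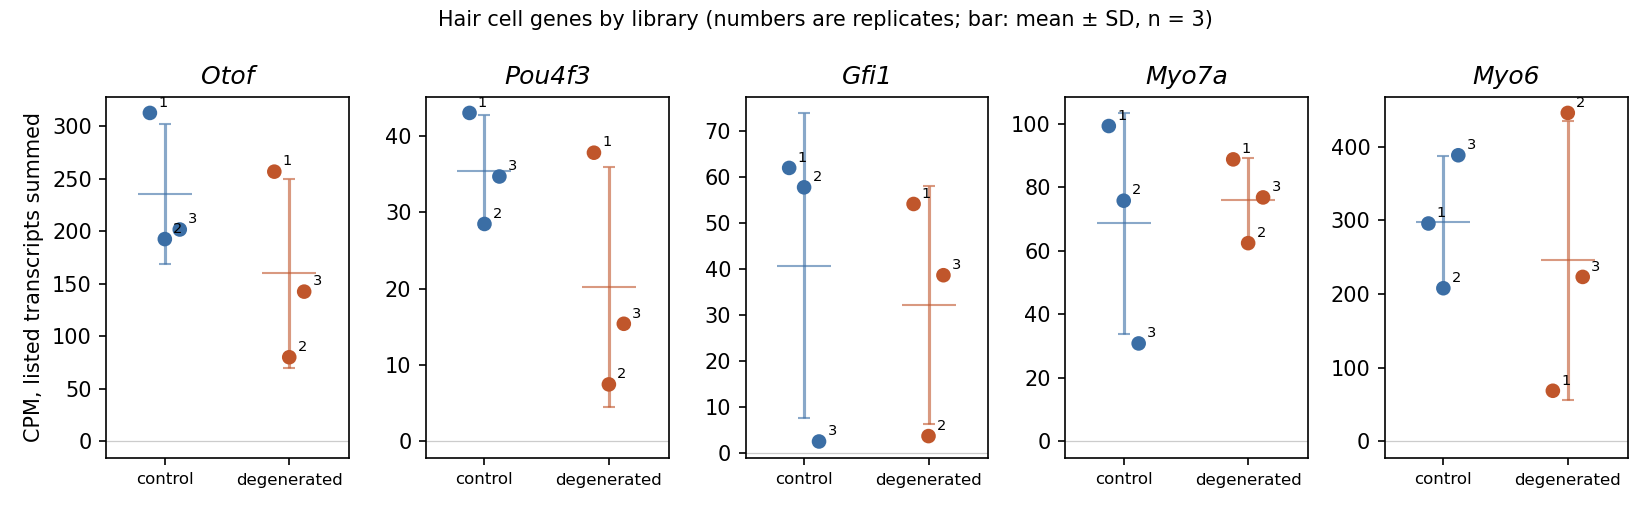
Level of Otof, Pou4f3, Gfi1, Myo7a and Myo6 in each library, in CPM summed over listed transcripts (vertical axis, linear), for control and degenerated libraries (horizontal axis). Points are libraries numbered by replicate, and bars give the mean ± SD of 3 libraries. Degenerated replicate 1 lies within the control points for Otof and Pou4f3, and the groups overlap in every panel.

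Otof (ENSMUSG00000062372, chr5:30367062-30461932 of GRCm38, minus strand) is annotated with 2 coding transcripts, both listed. They end in different last coding exons of 178 bases, shown here because the counts fell almost wholly on 1 of them. The end of otoferlin anchors the protein in the membrane. The sequences below are those of GENCODE M21, written 5′ to 3′ on the gene's strand, with the alternative exon in capitals and the 15 coding bases before it in lower case. The last coding exon of Otof-202 lies at chr5:30367863-30368040 and that of Otof-201 at chr5:30370101-30370278.
Otof-202: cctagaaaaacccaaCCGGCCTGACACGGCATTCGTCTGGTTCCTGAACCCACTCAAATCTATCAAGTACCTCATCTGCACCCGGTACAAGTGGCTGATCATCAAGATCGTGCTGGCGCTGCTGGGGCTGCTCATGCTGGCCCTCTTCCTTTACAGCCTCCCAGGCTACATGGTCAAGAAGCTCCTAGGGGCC
Otof-201: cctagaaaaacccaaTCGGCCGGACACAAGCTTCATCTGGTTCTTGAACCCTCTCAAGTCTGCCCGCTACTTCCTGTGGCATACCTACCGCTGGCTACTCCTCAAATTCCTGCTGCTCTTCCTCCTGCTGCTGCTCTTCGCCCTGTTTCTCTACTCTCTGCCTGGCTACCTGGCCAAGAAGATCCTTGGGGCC
The capitals were identical at 119 of 178 bases (66.9%). Otof-202 held at least 99.8% of the listed Otof counts in every library. Otof-201 had 1, 5 and 0 counts in control replicates 1, 2 and 3 and 0 in each degenerated library, where a count of 0 allows up to 3 counts. Otof-201 carries a coding segment of 60 bases at chr5:30380174-30380233 that Otof-202 lacks, not shown here. Otof-202 in turn carries a coding segment of 45 bases at chr5:30414505-30414549 that Otof-201 lacks.
Otof-202 segment: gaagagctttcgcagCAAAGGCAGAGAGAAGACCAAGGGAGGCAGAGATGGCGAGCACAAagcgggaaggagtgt
Here the capitals mark the segment and the lower case letters the coding bases beside it.

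Otof was measured at 313, 193 and 202 CPM in control replicates 1, 2 and 3, from 4721, 2721 and 3160 counts. In degenerated replicates 1, 2 and 3 it was at 257, 80.2 and 143 CPM, from 3752, 1138 and 1806 counts. Degenerated replicate 1 lay above 2 of the 3 controls, and degenerated replicates 2 and 3 lay below all of them. As a share of the control mean, these were 109%, 34.0% and 60.5%. The means were 236 ± 66.8 CPM (SD, n = 3) in control and 160 ± 89.5 CPM (SD, n = 3) in degenerated libraries. The log2 fold change was -0.56 (SE 0.44, 95% interval -1.64 to 0.52), and edgeR's quasi-likelihood test gave it an adjusted p of 0.735 (unadjusted p = 0.252). This interval allows a degenerated level between 0.321 and 1.44 times the control level. Fewer cells of a type and less RNA per cell cannot be told apart in such bulk samples. The size of this difference depended on single libraries. Without degenerated replicate 1 the log2 fold change of Otof was -1.09 (unadjusted p = 0.0311, edgeR's quasi-likelihood test), and without degenerated replicate 2 or control replicate 1 it was -0.25 or -0.31.

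Slc17a8 (ENSMUSG00000019935, chr10:89574020-89621253, minus strand) could not be followed with these counts. Of its 2 annotated coding transcripts the table lists the shorter, Slc17a8-202, with 1863 bases, and the transcript of 4456 bases, Slc17a8-201, was not analysed here. Slc17a8-202 had 0 counts in all 3 control libraries and in degenerated replicates 2 and 3, and 2 counts in degenerated replicate 1. Each 0 allows up to 3 counts, and the gene was given no fold change and no test.

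Pou4f3 (ENSMUSG00000024497, chr18:42394539-42397249, plus strand) had 1 of 2 transcripts listed, Pou4f3-201, and it followed the same libraries as Otof. Control replicates 1, 2 and 3 were at 43.0, 28.4 and 34.6 CPM, from 649, 402 and 543 counts. Degenerated replicates 1, 2 and 3 were at 37.8, 7.47 and 15.4 CPM, from 552, 106 and 195 counts. Again the first of these lay among the controls and the other 2 below every control, at 107%, 21.1% and 43.5% of the control mean. The log2 fold change was -0.81 (SE 0.59, 95% interval -2.24 to 0.63, adjusted p = 0.708 and unadjusted p = 0.218 in edgeR's quasi-likelihood test), from a mean of 35.3 ± 7.29 CPM to a mean of 20.2 ± 15.7 CPM (SD, n = 3 each). Without degenerated replicate 1 it was -1.64 (unadjusted p = 0.0112), still short of the threshold of 0.01, and without degenerated replicate 2 it was -0.43. The count of Otof was 7.27, 6.77 and 5.82 times that of Pou4f3 in control replicates 1, 2 and 3 and 6.80, 10.7 and 9.26 times in degenerated replicates 1, 2 and 3. In degenerated replicates 2 and 3, then, Pou4f3 was further below its control level than Otof was.

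Gfi1 (ENSMUSG00000029275, chr5:107716657-107726036, minus strand) encodes a zinc finger repressor that is also known from blood cell precursors. It was at 62.0, 57.8 and 2.49 CPM in control replicates 1, 2 and 3 (937, 817 and 39 counts) and at 54.2, 3.66 and 38.7 CPM in degenerated replicates 1, 2 and 3 (792, 52 and 490 counts). Thus 1 library of each group stood near 0 and the other 4 between 38.7 and 62.0 CPM. The log2 fold change was -0.34 with a 95% interval from -3.45 to 2.77 (SE 1.27, adjusted p = 0.948 in edgeR's quasi-likelihood test), wide enough that no direction can be read. Leaving out control replicate 1 gave 0.07, and leaving out degenerated replicate 2 gave 0.18. Gfi1-201 held at least 97.7% of the listed counts in 5 libraries and 64.1% in control replicate 3. Of the 4 coding transcripts Gfi1-202 was not listed, and any counts on it were not analysed here. Neutrophil precursors are a cell type known to use Gfi1, and 8 of 12 of their markers were listed. Summed, these were at 249, 13526 and 6680 CPM in control replicates 1, 2 and 3. In degenerated replicates 1, 2 and 3 they were at 638, 1946 and 4677 CPM. The part of such cells in the Gfi1 values was not tested. Gfi1 overlaps A430072P03Rik on the other strand, and whether the authors counted by strand is not stated.

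Myo7a (ENSMUSG00000030761, chr7:98051060-98119524, minus strand) had 6 of 13 annotated transcripts listed, among them all 6 that are coding, and myosin VIIa isoforms with different N termini are known in hair cells. The gene was at 99.4, 75.8 and 30.9 CPM in control replicates 1, 2 and 3 and at 88.9, 62.5 and 76.9 CPM in degenerated replicates 1, 2 and 3. Control replicate 3 was the lowest library, and the degenerated libraries lay between the controls. The log2 fold change was 0.15 (SE 0.42, 95% interval -0.89 to 1.18, adjusted p = 0.931 in edgeR's quasi-likelihood test), and -0.21 without control replicate 3. Myo7a was thus the 1 tested gene of the 6 whose degenerated mean, 76.1 ± 13.2 CPM, was not below its control mean, 68.7 ± 34.8 CPM (SD, n = 3 each).

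Most Myo7a counts fell on Myo7a-204, which alone carries a coding segment of 114 bases at chr7:98065782-98065895. It is shown in capitals, between the coding bases beside it.
Myo7a-204: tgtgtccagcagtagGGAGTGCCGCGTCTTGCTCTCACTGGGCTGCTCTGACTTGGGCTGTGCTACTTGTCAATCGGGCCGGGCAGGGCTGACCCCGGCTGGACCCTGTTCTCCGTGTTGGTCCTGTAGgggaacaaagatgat
Myo7a-204 had 1327, 794 and 57 counts in control replicates 1, 2 and 3 and 969, 690 and 799 in degenerated replicates 1, 2 and 3. Its share of the listed Myo7a counts was 88.4%, 74.1% and 11.8% in the controls and 74.6%, 77.8% and 82.0% in the degenerated libraries. In control replicate 3, the low library, Myo7a-203 had the largest share (49.8%, 241 counts) and Myo7a-213 followed (32.2%, 156 counts). Myo7a-203, Myo7a-204 and the short Myo7a-207 begin at the outermost start of the gene and together held 61.6% to 93.3% of its counts. Myo7a-201 and Myo7a-202, which begin farther in, had 96 and 95 counts in control replicate 2 and 77 and 80 in degenerated replicate 1, and at most 30 and 5 in the other libraries. None of the 4 Myo7a transcripts tested was called, and their log2 fold changes lay between -0.75 for Myo7a-201 and 0.22 for Myo7a-204.

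Myo6 (ENSMUSG00000033577, chr9:80165031-80311729, plus strand) had 7 of 12 transcripts listed and 3 of its 6 coding ones, Myo6-201, Myo6-202 and Myo6-204. Myosin VI is known to be spliced in its tail, and these transcripts differ there by short segments. The capitals below mark a segment of 27 bases at chr9:80293527-80293553, found among the listed transcripts in Myo6-204, a segment of 39 bases at chr9:80296643-80296681 in Myo6-202 and Myo6-204, and a segment of 27 bases at chr9:80303273-80303299 in Myo6-201 and Myo6-204.
Myo6-204: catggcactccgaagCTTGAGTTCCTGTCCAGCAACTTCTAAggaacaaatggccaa
Myo6-202 and Myo6-204: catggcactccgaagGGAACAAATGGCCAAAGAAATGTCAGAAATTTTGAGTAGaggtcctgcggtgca
Myo6-201 and Myo6-204: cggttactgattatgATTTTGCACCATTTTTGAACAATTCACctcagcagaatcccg
The lower case bases before the segment of 39 bases are those of Myo6-202. In Myo6-204 the segment of 27 bases at chr9:80293527-80293553 comes directly before it. Each segment is a multiple of 3 in length. They are shown because the transcript with the most Myo6 counts, which held 68.4% to 98.9% of those listed, was not the same in each library.

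Myo6-201 had 4216, 270 and 6019 counts in control replicates 1, 2 and 3 and 925, 166 and 801 in degenerated replicates 1, 2 and 3. Myo6-202 had 178, 2612 and 0 counts in the controls and 0, 15 and 1935 in the degenerated libraries. Myo6-204 was at 0 in all controls and in degenerated replicate 1, at 6057 in degenerated replicate 2 and at 11 in degenerated replicate 3. The leading transcript was therefore Myo6-201 in control replicates 1 and 3 and degenerated replicate 1, with 91.9% to 98.9% of the listed Myo6 counts, Myo6-202 in control replicate 2 (88.9%) and degenerated replicate 3 (68.4%), and Myo6-204 in degenerated replicate 2 (95.7%). Listed transcripts with the segment of 39 bases held 3.98%, 88.9% and 0% of these counts in control replicates 1, 2 and 3. In degenerated replicates 1, 2 and 3 they held 0%, 95.9% and 68.8%. Both groups thus held libraries with nearly all and with nearly none of the counts on such transcripts. The unlisted Myo6-205 and Myo6-212 also carry the segment. How reads were divided among transcripts that differ by short segments is not stated. Whether these shares follow splicing or that division was not tested. Over the table, changes of the leading transcript were not counted, only transcripts with many counts in 1 library and 0 in another. Of 4514 transcripts with at least 1000 counts in some library, 227 (5.03%) had 0 counts in another, and among them 1.3% of those from genes with 1 annotated transcript against 5.3% of those from genes with more.

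**Figure D2:**
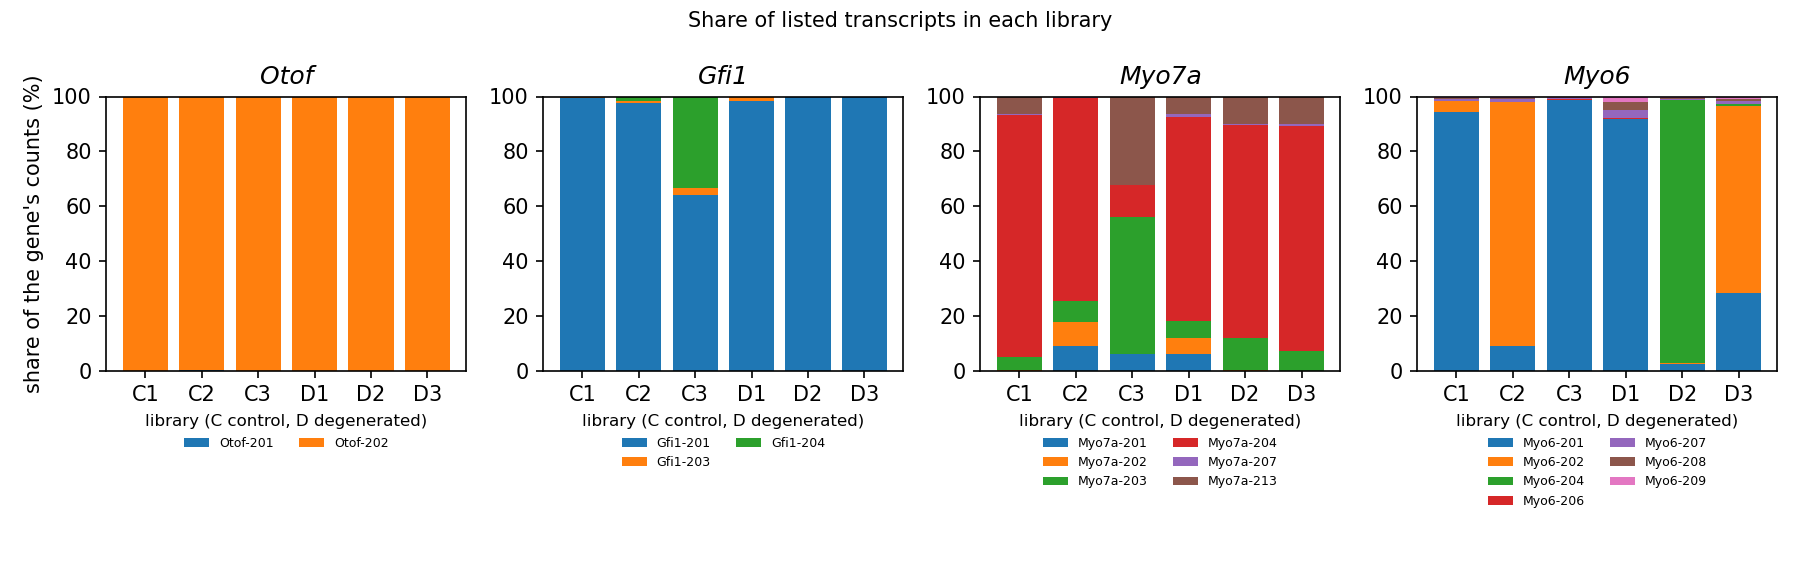
Share of a gene's listed counts held by each transcript (vertical axis, %, from 0 to 100) in control (C) and degenerated (D) libraries, for Otof, Gfi1, Myo7a and Myo6. Otof stays on Otof-202 throughout, while the leading Myo6 transcript is Myo6-201 in 3 libraries, Myo6-202 in 2 and Myo6-204 in 1.

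Summed over its listed transcripts, Myo6 was at 296, 208 and 388 CPM in control replicates 1, 2 and 3 and at 68.8, 446 and 223 CPM in degenerated replicates 1, 2 and 3. The lowest and the highest library were both degenerated. The log2 fold change of the gene was -0.27 (SE 0.64, 95% interval -1.84 to 1.29, adjusted p = 0.913 in edgeR's quasi-likelihood test) and 0.16 without degenerated replicate 1. Transcript by transcript, Myo6-201 had the most negative value, -2.34 (SE 1.16, unadjusted p = 0.0930, edgeR's quasi-likelihood test), and Myo6-204 did not pass the filter on low counts. Of the 12 transcripts of the 6 genes that were tested, 0 were called by the unadjusted rule, against 1.79% of the 26065 transcripts tested (1.14% higher and 0.652% lower), or at an adjusted p, against 0.0153%, and the smallest p was 0.0644. That transcript, Myo6-208, was the only 1 of the 12 whose groups did not overlap in CPM (16.4% of all transcripts tested). Its highest control value was 1.23 CPM and its lowest degenerated value 1.26 CPM, both in replicate 3. It is annotated as a retained intron. Its counts were few and did overlap, 11, 12 and 19 in control and 29, 31 and 16 in degenerated replicates 1, 2 and 3. Myo6 overlaps the antisense gene Gm27227.

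**Figure D3:**
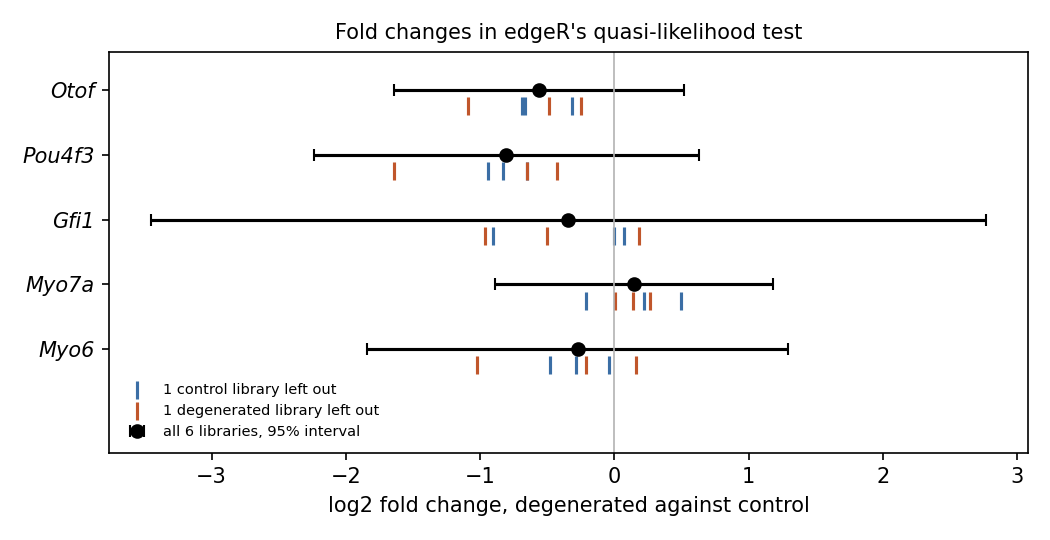
Log2 fold change of degenerated against control libraries (horizontal axis) for the 5 genes tested, with the 95% interval of edgeR's quasi-likelihood test as a black bar and the value with 1 library left out as blue (control) or orange (degenerated) ticks. Every interval includes 0, and the values of Otof and Pou4f3 range from -1.09 to -0.25 and from -1.64 to -0.43.

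Per kilobase of transcript, which allows levels to be compared between genes, the control means were 43.8 ± 11.5 CPM per kb for Myo6, 34.2 ± 9.71 for Otof, 14.98 ± 3.09 for Pou4f3, 14.9 ± 11.3 for Gfi1 and 9.70 ± 4.75 for Myo7a (SD, n = 3). Myo6 and Otof lay within their spread of each other, as did Pou4f3, Gfi1 and Myo7a, whereas Otof lay above Pou4f3 by more than the SDs. In degenerated libraries the means per kilobase were 39.4 ± 24.9 CPM per kb for Myo6, 23.2 ± 13.01 for Otof, 11.3 ± 9.06 for Gfi1, 11.1 ± 2.31 for Myo7a and 8.56 ± 6.66 for Pou4f3. No neighbours in this second order differed by more than their spread. These levels count listed transcripts only.

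Genes with the most similar course over the 6 libraries were looked for among the 14117 other genes tested, by the root mean square difference of centred log2(CPM + 1) values. For Otof they were Mslnl (difference 0.12), Tmc1 (0.14) and 2810433D01Rik (0.15). Tmc1, which encodes a part of the mechanotransduction channel of the hair bundle, was at 50.0, 24.8 and 32.9 CPM in control replicates 1, 2 and 3 and at 43.3, 10.8 and 18.9 CPM in degenerated replicates 1, 2 and 3. For Pou4f3 they were Kncn (0.18), Kcna10 (0.19) and Cabp2 (0.21). Kcna10 stood at 73.5, 36.1 and 53.7 CPM in the controls and at 48.5, 10.7 and 28.1 CPM in the degenerated libraries. In each of these 6 genes degenerated replicate 1 was the highest of the 3 degenerated libraries and degenerated replicate 2 the lowest, as their choice by likeness makes probable. Over all genes tested 15.5% had this order of the degenerated libraries, and Otof, Pou4f3, Gfi1 and Myo7a had it too. The most similar genes were Fbxl5 (0.42), Mir124-2hg (0.52) and Aff1 (0.65) for Gfi1, with greater differences than for Otof or Pou4f3. Fbxl5, like Gfi1, was near 0 in control replicate 3 (2.74 CPM) and degenerated replicate 2 (4.86 CPM) and at 48.0 to 124 CPM in the other libraries, with 2 of its 12 transcripts listed. For Myo7a they were Adamtsl2 (0.11), Fbxo47 (0.13) and 4930553P18Rik (0.13), all at 4.63 CPM or less, and for Myo6 they were Celsr3 (0.23), Kctd9 (0.24) and Brinp3 (0.28).

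The 2 called genes of the outer hair cell list, Ocm and Slc26a5, are set beside Otof and Pou4f3 here. Ocm, which encodes the calcium buffer oncomodulin, was at 150, 140 and 173 CPM in control replicates 1, 2 and 3 and at 3.90, 3.38 and 0.789 CPM in degenerated replicates 1, 2 and 3. Slc26a5, which encodes the motor protein prestin, was at 16.0, 9.69 and 7.78 CPM in control and at 0.137, 0.493 and 0.316 CPM in degenerated libraries. Both were low in all 3 degenerated libraries, replicate 1 included, in which Otof was at 109% of its control mean. Their log2 fold changes were -5.83 for Ocm and -5.11 for Slc26a5, and both passed the unadjusted rule (unadjusted p = 7.29e-05 and 0.000121; adjusted p = 0.0802 and 0.0901, edgeR's quasi-likelihood test). Within a library, the log2 ratio of Ocm to Otof was -0.58 ± 0.43 in control and -6.03 ± 1.46 in degenerated libraries (SD, n = 3 each), a difference of -5.45. Against Pou4f3 the log2 ratio of Ocm differed by -5.04, and Slc26a5 differed by -4.58 against Otof and by -4.17 against Pou4f3. The SD of the Slc26a5 log2 ratio in degenerated libraries was 1.77 against Otof and 2.11 against Pou4f3 (n = 3). Slc26a5 in all 3 degenerated libraries and Ocm in degenerated replicate 3 were below 1 CPM, which leaves the size of these ratios uncertain. These ratios are a description with no test, since Ocm and Slc26a5 were taken for their own difference between the groups.

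**Figure D4:**
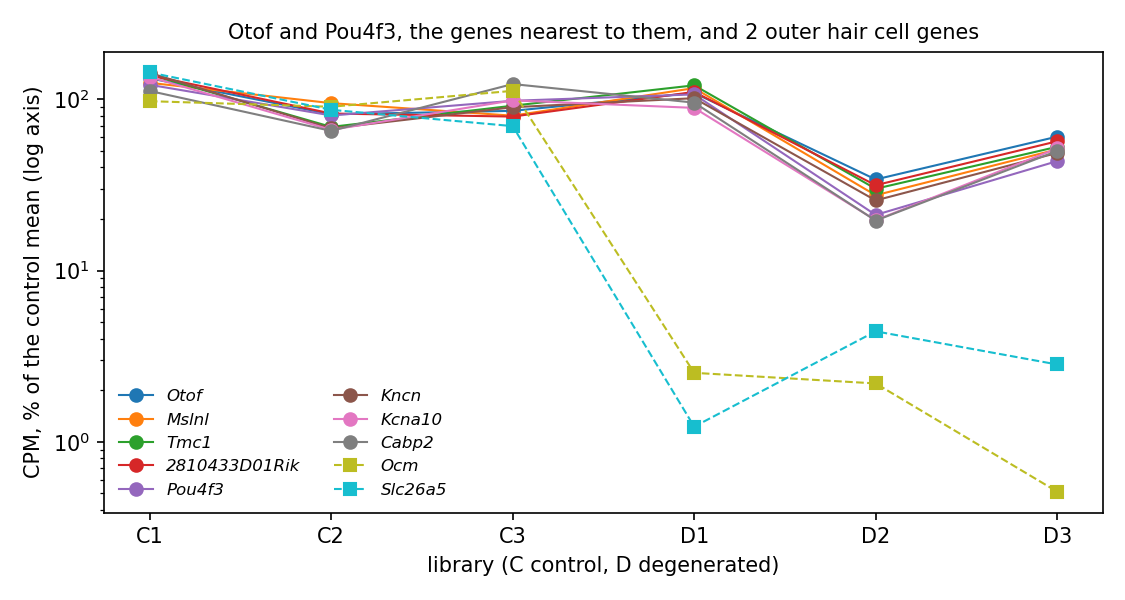
Level of Otof, Pou4f3, the 3 genes most similar to each of them, and the outer hair cell genes Ocm and Slc26a5 in each library, as a percentage of the gene's own control mean (vertical axis, log scale), for control (C) and degenerated (D) libraries. Lines only join the points of a gene. In D1, Otof is at 109% and Pou4f3 at 107%, while Ocm and Slc26a5 are near the bottom of the axis at 2.53% and 1.23%.

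Genes that work with the 6 were counted in 5 lists. Among hair cell transcription factors 11 of 13 genes were tested, with Pou4f3 and Gfi1 included, and 0 were called (median log2 fold change -0.20; Rfx1 was not listed and Insm1 was too low). The smallest unadjusted p among them belonged to Ikzf2, which encodes helios (log2 fold change 0.52, unadjusted p = 0.0632), Barhl1 (-1.45, unadjusted p = 0.0730) and Rfx3 (0.56, unadjusted p = 0.106). Atoh1, the factor that starts hair cell formation, was at 0.990 to 1.13 CPM in control and at 0.889, 0 and 0.789 CPM in degenerated replicates 1, 2 and 3, chosen here after its values were seen. At the inner hair cell synapse 15 of 16 genes were tested, with Otof included, and 0 were called (median -0.10). The smallest p values there were those of Snap25 (-0.62, unadjusted p = 0.0211), a SNARE protein that neurons also express, Syt4 (0.60, unadjusted p = 0.10) and Pclo (0.43, unadjusted p = 0.132), which encodes the active zone protein piccolo. Synapse genes that neurons share with hair cells are thus part of this list.

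Among hair bundle myosins and their partners 17 of 21 genes were tested, with Myo7a and Myo6 included. There 2 were called lower (0.715% of all genes tested were) and 0 higher, with a median log2 fold change of 0.09. Myo15, which encodes the motor that carries cargo to stereocilia tips, was at 103, 77.5 and 63.5 CPM in control replicates 1, 2 and 3 and at 9.17, 12.7 and 27.3 CPM in degenerated replicates 1, 2 and 3 (log2 fold change -2.31, SE 0.46, unadjusted p = 0.00239). Cib2, which encodes a calcium-binding partner of the transduction channel, was at 187, 151 and 182 CPM and at 95.3, 99.2 and 86.3 CPM (-0.89, SE 0.13, unadjusted p = 0.000432). In both, all degenerated libraries lay below all controls, and the adjusted p values were 0.277 and 0.178 in edgeR's quasi-likelihood test. Next came Myo1c (0.71, unadjusted p = 0.0891), and Myo3a, Myo3b, Clrn1 and Tprn were too low for the test. Among myosin VI adaptors 7 of 8 genes were tested and 0 were called (median 0.04), with the smallest p for Tom1 (0.65, unadjusted p = 0.0705), Calcoco1 (-0.27, unadjusted p = 0.0799) and Dab2 (0.66, unadjusted p = 0.0945). Of the outer hair cell list 5 of 8 genes were tested, 2 were called lower, Ocm and Slc26a5, and the median was -1.49. Chrna9, of the efferent synapse receptor, was at 0 in every library and was not tested. Strc, which encodes stereocilin, was at 48.6, 32.3 and 27.8 CPM in control and at 24.8, 2.04 and 11.8 CPM in degenerated libraries (-1.49, unadjusted p = 0.117), with the same order of the 3 degenerated libraries as for Otof, although all 3 lay below every control.

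**Figure D5:**
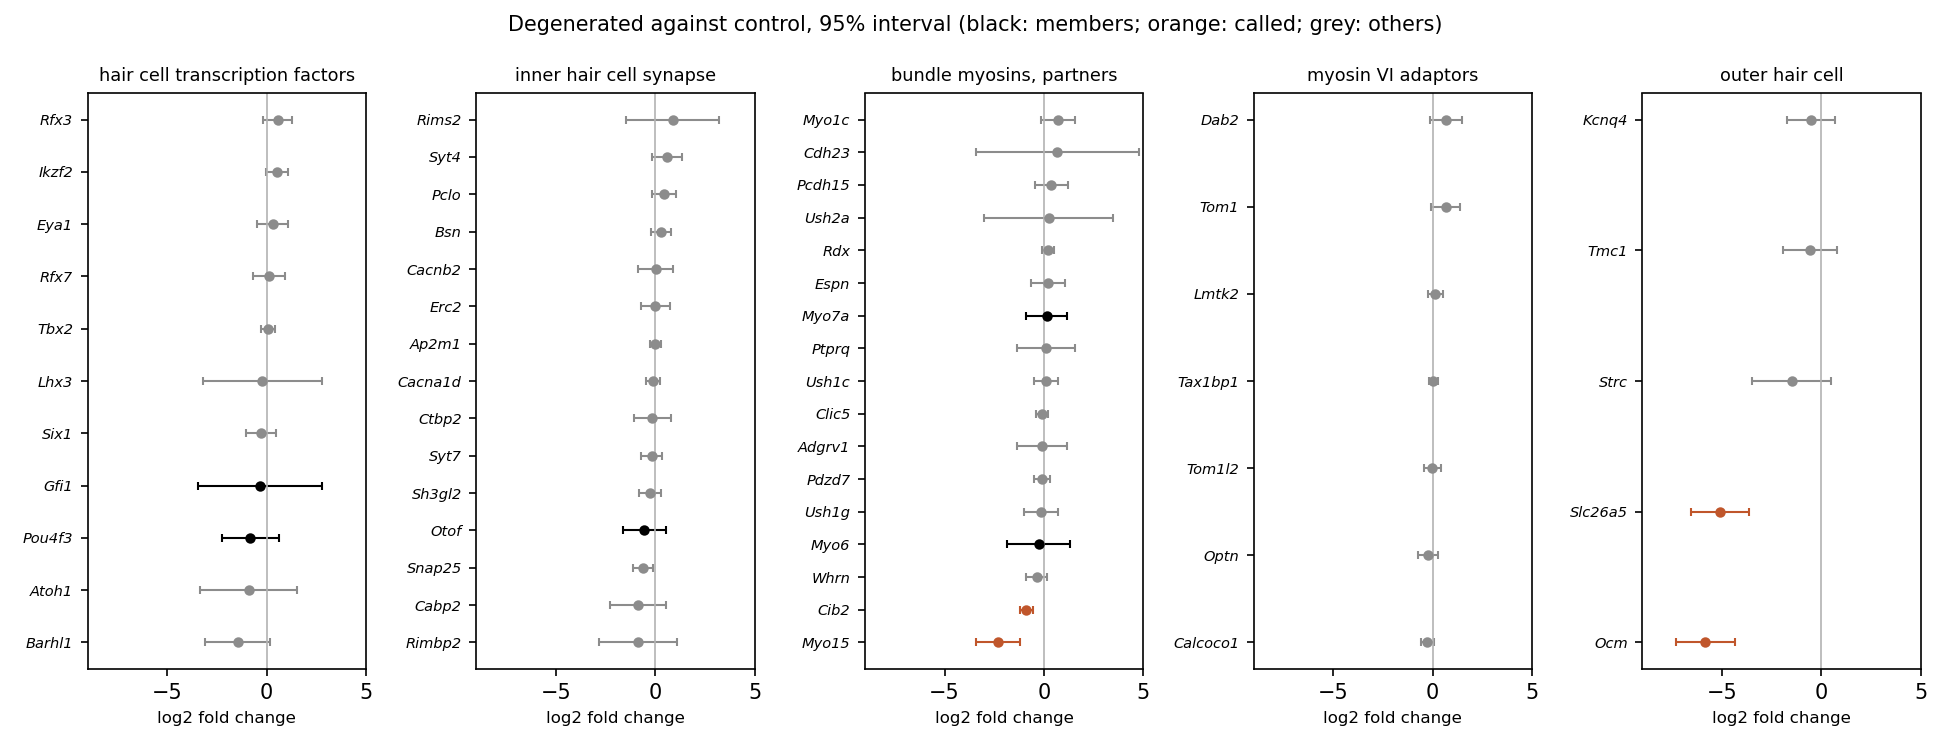
Log2 fold change of degenerated against control libraries (horizontal axis) for each tested gene of the 5 lists, with the 95% interval of edgeR's quasi-likelihood test. Black marks Otof, Pou4f3, Gfi1, Myo7a and Myo6, orange the 4 genes called lower (Myo15, Cib2, Slc26a5 and Ocm), and grey the other genes, whose values were not called.

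Markers of the other cell types that a piece of modiolus can hold were counted in the same way, and the calls named in this paragraph were chosen after their values were seen. Ceacam16 rose among 10 of 15 supporting cell markers that were tested (median log2 fold change 0.37, 7 above and 3 below 0). C1qb and C1qc rose among 6 of 11 macrophage markers tested (median 0.41, 4 above and 2 below 0). Calb2 fell among 14 of 15 SGN markers tested (median -0.39, 3 above and 11 below 0). Bglap and Bglap2 fell among 6 bone markers (median -0.94). Of 4 skeletal muscle markers tested (median -3.31) Pvalb fell, and SGNs are also known to express it. It was at 722 to 817 CPM in control and at 323 to 512 CPM in degenerated libraries. The other 3, Atp2a1, Mylpf and Tnni2, were at 120, 30.5 and 24.9 CPM in control replicate 3 and at most at 5.40, 4.39 and 1.92 CPM in the other 5 libraries. All of these calls were made by the unadjusted rule. No call was made among 8 Schwann cell (median 0.10), 8 neutrophil precursor (median -1.53), 6 erythroid (median -1.29) and 6 melanocyte markers (median 0.33). Their part in the values of the 6 genes was not tested.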

How the data were processed

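The modiolus of 3 control and 3 degenerated libraries was compared. The authors aligned reads with Hisat2 2.1.0 and evaluated expression with StringTie 1.3.3b, and the deposited table holds raw counts per Ensembl transcript, without normalization. The submitters' processing notes also name Bowtie 0.12.2, mm8 and mm10. How reads were counted, and with which strand setting, is not stated in the paper or the labels. Of 65535 transcripts, 65272 matched GENCODE M21 (GRCm38), and the other 263, with 0.125% of counts, were left out. Transcripts were summed per gene, since the comparison was designed for genes, and also tested singly.

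Tests used edgeR 4.0.16 in R 4.3.3 (filterByExpr, TMM, robust quasi-likelihood F test, no covariates) on all genes or transcripts, with Benjamini-Hochberg adjustment over all of them. CPM use the TMM factors (0.983 to 1.02). The common biological coefficient of variation was 0.488 for genes and 0.694 for transcripts. Per kilobase values divide each transcript's CPM by its annotated length. A pseudocount of 1 was used in the search for similar genes. Counts of 0 were read as up to 3 counts, for counting error only. The steps were tested on simulated data. Alternatives were RLE scaling, other filters on low counts, DESeq2 1.42.0, limma-voom (limma 3.58.1), a replicate block, and leaving out 1 library at a time.

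The 6 genes and the gene lists were chosen with earlier results of these data known. Named are the 6 genes and their transcripts, in the 5 hair cell lists the called genes and the 3 with the smallest p, and the 3 genes most similar to each tested gene. Others were chosen after their values were seen. Knockout mice and histology were not analysed here.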

Additional observations from a re-analysis of the deposited data

How the results depend on the processing

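No alternative led to a call for Otof, Pou4f3, Gfi1, Myo7a, Myo6 or any of their transcripts, and 190 of 204 values kept their direction. The other 14 reversed, nearly all with 1 library left out. Leaving out each library in turn moved the log2 fold change of Gfi1 between -0.96 and 0.18, of Myo7a between -0.21 and 0.50 and of Myo6 between -1.03 and 0.16. For transcripts the ranges were -0.95 to 0.18 for Gfi1-201, -8.39 to 0.83 for Myo7a-201, -0.84 to 0.19 for Myo7a-203, -0.33 to 0.96 for Myo7a-204, -0.36 to 0.95 for Myo7a-213 and -6.99 to 3.07 for Myo6-202. In limma-voom Gfi1-201 was at 0.14. Gfi1 was above 0 without control replicate 1 (0.07) or degenerated replicate 2 (0.18), Myo7a below 0 without control replicate 3 and Myo6 above 0 without degenerated replicate 1, and beyond the library left out the cause was not tested. DESeq2 called 785 genes and 1212 transcripts, against 385 genes and 466 transcripts in edgeR's test, and at an adjusted p it called 263 genes higher and 119 lower. With 1 library left out, 258 to 497 genes and 411 to 642 transcripts were called. With the replicate block, 218 genes and 221 transcripts were called, and edgeR gave Otof -0.68 (unadjusted p = 0.0435) and Pou4f3 -1.09 (unadjusted p = 0.0563). Same-numbered libraries deviated with correlations of 0.14, -0.086 and 0.066, against -0.26 to 0.22 for the other pairs. With so few libraries these values cannot tell whether the libraries were paired. Slc17a8, with 2 counts in all, was given no fit. The lowest counts in a library were 1138 for Otof and 106 for Pou4f3, and the effect of depth on their tests was not tested.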
